A study of Mus musculus with 16 samples.

Results

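The collagen genes of the mouse were described as a family, chosen by name alone: every gene whose symbol is Col, a number, a and a number. This gave 44 genes of the 55421 listed in each library, divided by the known structure of their chains into 11 fibrillar, 6 basement membrane and 27 other collagens. The data were RNA-seq read counts per gene from 16 libraries of C57BL/6 mice kept on a diet labelled HFD, 2 libraries in each of 8 groups. In white adipose tissue (WAT) and in liver, the groups were fl/fl given the antagonist NOX_6_18, CKO given vehicle, CKO given NOX_6_18, and fl/fl given vehicle. The fl/fl mice were GPR132fl/fl, with the gene flanked by loxP sites but without Cre. The CKO mice were Lyz2_cre+/_GPR132fl/fl, in which the promoter of Lyz2, a gene of myeloid cells, drives Cre, so a deletion is directed to macrophages and other myeloid cells and not to the cells that make most collagen. All 8 groups therefore carried the floxed Gpr132 allele, which encodes a G protein-coupled receptor, and the study asked which genes NOX_6_18 affects through this receptor in macrophages. The labels describe the RNA as that of macrophages from WAT or liver, while the protocol describes freezing of the tissue itself, and macrophage markers were detected beside those of fibroblasts, adipocytes and endothelium in WAT. Whether both libraries of a group stem from separate animals is not stated, so p-values measure only library-to-library spread, and that spread could be technical.

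Collagens are the main structural proteins of the extracellular matrix. Each is built from chains that wind around each other into a rigid helix: fibrillar collagens pack into tension-bearing fibres, type IV collagens form the sheet of the basement membrane under epithelium, around vessels and around each adipocyte, and the others decorate fibrils, anchor epithelium, span the cell membrane or form finer networks. In adipose tissue the fibrillar and type VI collagens come mainly from fibroblast-like stromal cells, in liver they come mainly from hepatic stellate cells and portal fibroblasts, and macrophages bind, take up and degrade collagen.

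The libraries held 48348395 to 58396991 counts in WAT and 45624957 to 60761705 in liver, so that 3 counts correspond to 0.0499 to 0.0679 CPM (counts per 1e6 counts) in WAT and to 0.0485 to 0.0662 CPM in liver. CPM values are scaled within a tissue by the trimmed mean of M values (TMM) unless stated otherwise. Gpr132, the targeted gene, had 60.3 and 60.1 CPM in WAT of fl/fl NOX_6_18, 35.6 and 64.6 CPM in CKO vehicle and 56.5 and 59.1 CPM in CKO NOX_6_18, against 72.5 and 69.7 CPM in fl/fl vehicle libraries. The CKO vehicle libraries of WAT were not called lower than those of fl/fl vehicle (log2 fold change −0.51 ± 0.22 SE, adjusted p = 0.115), and since the counts cover the whole gene they do not check the genotype, so CKO here means the libraries labelled CKO. In liver Gpr132 had 2.13 and 1.64 CPM in fl/fl NOX_6_18, 1.86 and 1.46 CPM in CKO vehicle and 2.81 and 2.41 CPM in CKO NOX_6_18, against 4.26 and 4.04 CPM in fl/fl vehicle libraries. There it was called lower with CKO (−1.32 ± 0.24, adjusted p = 0.0162) and with NOX_6_18 in fl/fl mice (−1.13 ± 0.24, adjusted p = 0.0313), and the interaction of treatment and genotype was called (1.79 ± 0.34, adjusted p = 0.0344). In both tissues nearly all gene calls between groups were made against the fl/fl vehicle libraries, which stand apart from those of the other 3 groups. Both comparisons with calls in a tissue use the same 2 fl/fl vehicle libraries, so they are not independent, and their values are given side by side.

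The promoters of the collagens with high WAT counts differ in base composition and motifs, and 4 are shown for that reason. The RefSeq promoter table for GRCm38.p6 held 35 of the 44 collagens, with 38 windows of 300 bases, from 250 bases before to 50 after a transcription start. These 4 belong to a type I, the type III and the 2 main type IV genes. Col1a2 lies at chr6:4505368-4505667 on the plus strand, Col3a1 at chr1:45311288-45311587 on the plus strand, Col4a1 at chr8:11312777-11313076 on the minus strand and Col4a2 at chr8:11312555-11312854 on the plus strand. Capitals mark 3 short motifs on either strand, the CCAAT box (CCAAT or ATTGG), the GC box (GGGCGG or CCGCCC) and the TATA box (TATAAA or TTTATA), and no match in these 4 windows overlaps another.
Col1a2: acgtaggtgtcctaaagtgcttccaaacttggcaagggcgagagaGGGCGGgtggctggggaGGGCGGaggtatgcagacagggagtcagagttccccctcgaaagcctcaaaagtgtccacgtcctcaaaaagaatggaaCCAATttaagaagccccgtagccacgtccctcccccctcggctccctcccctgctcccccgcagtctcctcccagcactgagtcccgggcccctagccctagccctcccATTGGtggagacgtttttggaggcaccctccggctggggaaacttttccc
Col3a1: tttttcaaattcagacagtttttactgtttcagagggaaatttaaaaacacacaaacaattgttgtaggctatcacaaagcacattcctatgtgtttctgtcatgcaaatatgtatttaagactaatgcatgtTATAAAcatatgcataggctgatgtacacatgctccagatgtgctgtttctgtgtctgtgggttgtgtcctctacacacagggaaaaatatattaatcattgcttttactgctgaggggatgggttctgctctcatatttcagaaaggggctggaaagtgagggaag
Col4a1: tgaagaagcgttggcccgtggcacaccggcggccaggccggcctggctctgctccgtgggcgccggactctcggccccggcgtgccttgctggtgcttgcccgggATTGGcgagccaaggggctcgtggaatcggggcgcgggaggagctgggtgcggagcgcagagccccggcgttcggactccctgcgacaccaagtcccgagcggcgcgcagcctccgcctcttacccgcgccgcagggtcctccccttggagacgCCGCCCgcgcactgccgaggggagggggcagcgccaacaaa
Col4a2: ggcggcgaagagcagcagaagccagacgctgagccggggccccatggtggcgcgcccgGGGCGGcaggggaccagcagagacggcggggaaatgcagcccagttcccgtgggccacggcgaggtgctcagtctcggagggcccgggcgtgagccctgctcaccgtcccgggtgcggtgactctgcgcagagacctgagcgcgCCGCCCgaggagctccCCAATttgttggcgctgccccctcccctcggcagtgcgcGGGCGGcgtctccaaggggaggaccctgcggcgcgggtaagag
The Col3a1 window is 37.7% G and C, and its only match is a TATA box that begins 117 bases before the transcription start. The Col4a1 and Col4a2 windows, 74% and 73.7% G and C, hold CCAAT and GC boxes and no TATA box. The only GC box of Col4a1 begins at base 10 counted from the start. The Col1a2 window, 61% G and C, holds 2 CCAAT and 2 GC boxes, and 1 of these CCAAT matches begins at the start itself. The Col4a1 and Col4a2 starts lie head to head, 21 bases apart, and their windows share 78 bases. A GC box was in 60.5% of the collagen windows and in 35.7% of 32851 windows of all genes, a CCAAT box in 34.2% and 37.4%, and a TATA box in 13.2% and 13.6%. These matches are letters only and do not show that a factor binds.

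In WAT, the abundant fibrillar chains Col1a1, Col1a2 and Col3a1, the type V chains, the basement membrane pair Col4a1 and Col4a2 and the type VI chains Col6a1, Col6a2 and Col6a3 were lower in fl/fl NOX_6_18 and in CKO vehicle than in fl/fl vehicle libraries. Some less abundant genes, among them Col2a1, Col7a1, Col17a1 and Col22a1, were higher, while others, such as Col8a1 and Col28a1, were lower. Genes of any kind with a count numbered 30393 to 31289 in the other WAT libraries, against 25039 and 25702 in fl/fl vehicle. The low-count collagens that rose thus did so beside many other genes, and the part of this difference in their rise was not tested. Of the 43 collagens tested, 34 changed with NOX_6_18 in fl/fl mice (adjusted p under 0.05), 18 higher and 16 lower, where 37.8% of all genes tested were called, 24.6% higher and 13.2% lower. Between CKO and fl/fl on vehicle 35 changed, 18 higher and 17 lower, where 36.8% of all genes were called, 24.4% higher and 12.4% lower. The 18 collagens called higher were the same in both comparisons, and 16 of the lower ones were shared. The median log2 fold change of the family was 0.35 with NOX_6_18 and 0.31 with CKO, beside 0.12 and 0.10 for all genes. With library totals in place of TMM the median of all genes with NOX_6_18 was 0.286 and 19 collagens were called higher and 15 lower. Fewer cells of a type and less RNA per cell cannot be told apart in such bulk counts.

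The family as a whole took a smaller share of the reads: 1.74% to 1.87% of all WAT counts in the 6 libraries of the other 3 groups, against 2.76% and 3.08% in the fl/fl vehicle libraries. These ranges did not overlap. Within the collagen counts, fibrillar genes made up 53.1% to 55.3% in those 6 libraries, against 59.4% and 61.2% in fl/fl vehicle. Basement membrane genes made up 17.4% to 18.5% in those 6 and 15.2% and 16.2% in fl/fl vehicle libraries.

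**Figure D1:**
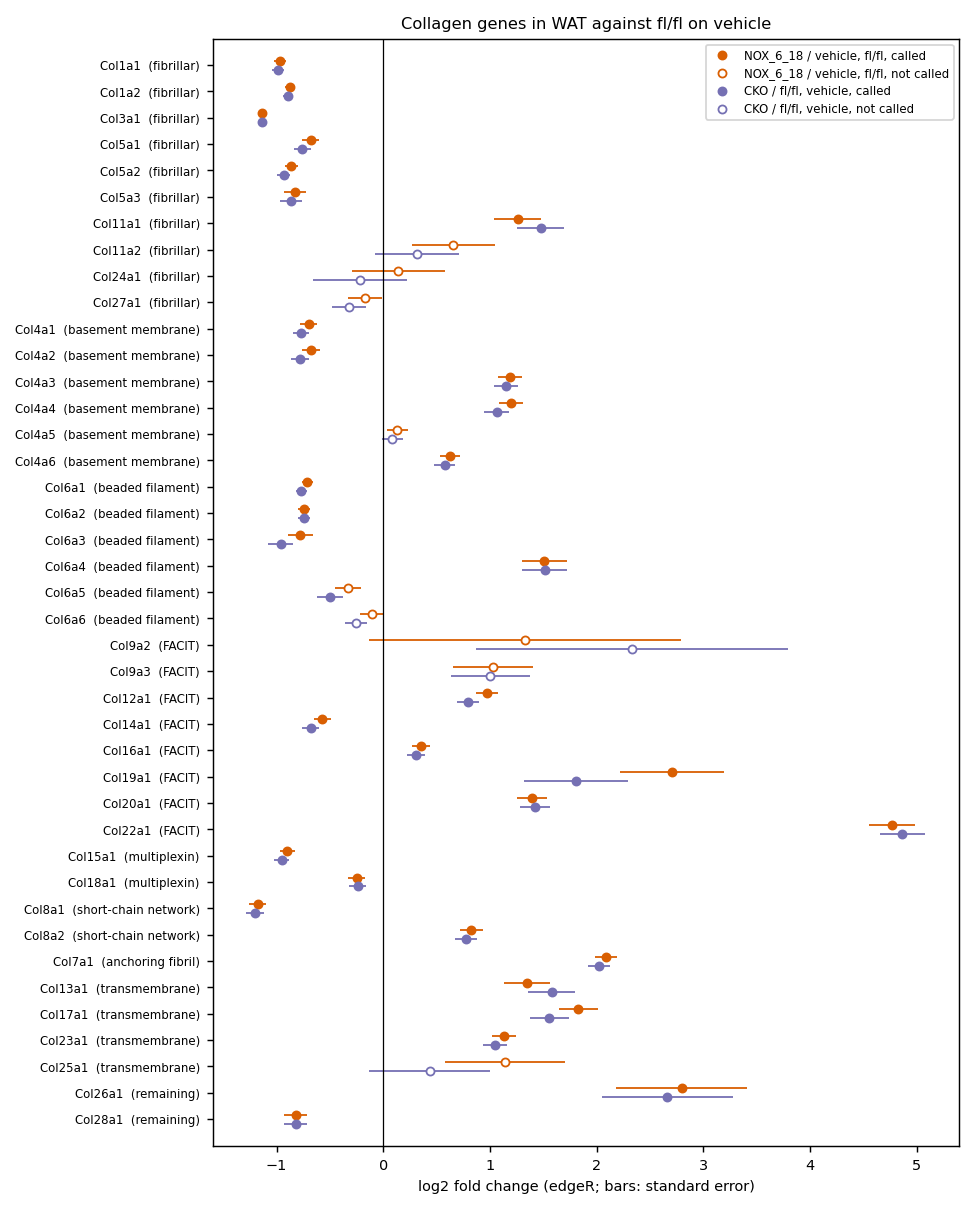
Log2 fold changes in WAT for 41 tested collagens, for fl/fl NOX_6_18 and for CKO vehicle, each over the same fl/fl vehicle libraries. Filled points were called (adjusted p under 0.05), open points were not, and bars are the SE; Col2a1 and Col9a1 lie beyond the axis. The abundant fibrillar, type IV a1 and a2 and type VI chains lie below 0 and most fibril-surface and transmembrane collagens above 0.

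Among the 11 fibrillar collagens 6 fell and 2 rose in both comparisons, with a median of −0.68 for NOX_6_18 and −0.76 for CKO. The shares of all genes called were 13.2% lower and 24.6% higher with NOX_6_18, and 12.4% and 24.4% with CKO. Col3a1, the single chain of type III collagen of pliable tissue, had 4410.3 and 4410.3 CPM in fl/fl NOX_6_18, 4415 and 4399.8 CPM in CKO vehicle and 4428 and 4509 CPM in CKO NOX_6_18, against 9489 and 9963 CPM in fl/fl vehicle libraries. The fl/fl vehicle pair was far above all 6 others, which differed little. The log2 fold change was −1.14 ± 0.03 for NOX_6_18 (SE, adjusted p = 1.08e-07) and −1.14 ± 0.03 for CKO (adjusted p = 1.03e-07). Col1a1 (chr11:94936224-94953042, plus strand), which encodes the α1 chain of type I collagen, the main fibre of skin, bone and scar, had 1686 and 1693 CPM in fl/fl NOX_6_18, 1630.0 and 1705 CPM in CKO vehicle and 1685 and 1791 CPM in CKO NOX_6_18, against 3138 and 3481 CPM in fl/fl vehicle libraries. The groups did not overlap, and the log2 fold changes were −0.97 ± 0.06 (adjusted p = 5.01e-06) and −0.99 ± 0.06 (adjusted p = 4.42e-06). Col1a2, which encodes the α2 chain of type I, had 2248 and 2291 CPM in fl/fl NOX_6_18, 2228 and 2246 CPM in CKO vehicle and 2213 and 2361 CPM in CKO NOX_6_18, against 4039.7 and 4293 CPM in fl/fl vehicle libraries. It fell by 0.88 ± 0.05 (adjusted p = 2.4e-06) and by 0.90 ± 0.05 (adjusted p = 2.1e-06) on the log2 scale.

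The type V chains, which regulate the diameter of type I fibrils, followed the same order. Col5a1 had 524 and 508 CPM in fl/fl NOX_6_18, 481 and 496 CPM in CKO vehicle and 506 and 517 CPM in CKO NOX_6_18, against 755 and 900.1 CPM in fl/fl vehicle libraries. Col5a2 had 371 and 364 CPM in fl/fl NOX_6_18, 348 and 350.2 CPM in CKO vehicle and 364 and 357 CPM in CKO NOX_6_18, against 635 and 701 CPM in fl/fl vehicle. Col5a3 had 261 and 256 CPM in fl/fl NOX_6_18, 242 and 261 CPM in CKO vehicle and 257 and 264 CPM in CKO NOX_6_18, against 407 and 511 CPM in fl/fl vehicle libraries. For all 3 genes both fl/fl vehicle libraries were above the other 6, and the log2 fold changes with NOX_6_18 were −0.68 ± 0.08 (adjusted p = 0.000264), −0.86 ± 0.06 (adjusted p = 1.22e-05) and −0.83 ± 0.10 (adjusted p = 0.000347). The CKO values were −0.76 ± 0.08 for Col5a1, −0.94 ± 0.06 for Col5a2 and −0.87 ± 0.10 for Col5a3, and all 3 were called.

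The 2 fibrillar genes that rose are typical of cartilage. Col2a1 (chr15:97975602-98004695, minus strand), the single chain of type II collagen, had 8.62 and 11.1 CPM in fl/fl NOX_6_18, 8.42 and 8.77 CPM in CKO vehicle and 8.14 and 9.44 CPM in CKO NOX_6_18, against 0.0906 and 0.0787 CPM, 4 counts in each library, in fl/fl vehicle. It was near the floor only in the fl/fl vehicle pair, and its log2 fold changes were 6.83 ± 0.28 (adjusted p = 5.76e-07) and 6.63 ± 0.28 (adjusted p = 6.66e-07). Col11a1, whose chain is part of cartilage fibrils, had 6.86 and 5.84 CPM in fl/fl NOX_6_18, 8.202 and 6.53 CPM in CKO vehicle and 6.59 and 7.58 CPM in CKO NOX_6_18, against 2.24 and 3.05 CPM in fl/fl vehicle libraries. The groups did not overlap, and the log2 fold changes were 1.26 ± 0.22 (adjusted p = 0.00251) and 1.47 ± 0.22 (adjusted p = 0.00111). Col27a1, a fibrillar collagen of cartilage, overlapped between groups at 18.4 to 22.8 CPM in the other 3 groups and 20.8 and 28.9 CPM in fl/fl vehicle (log2 fold change −0.17 ± 0.16, adjusted p = 0.439, with NOX_6_18). Col11a2, another chain of type XI, and Col24a1, a minor fibrillar gene, were not called either (adjusted p = 0.226 and 0.836 with NOX_6_18).

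**Figure D2:**
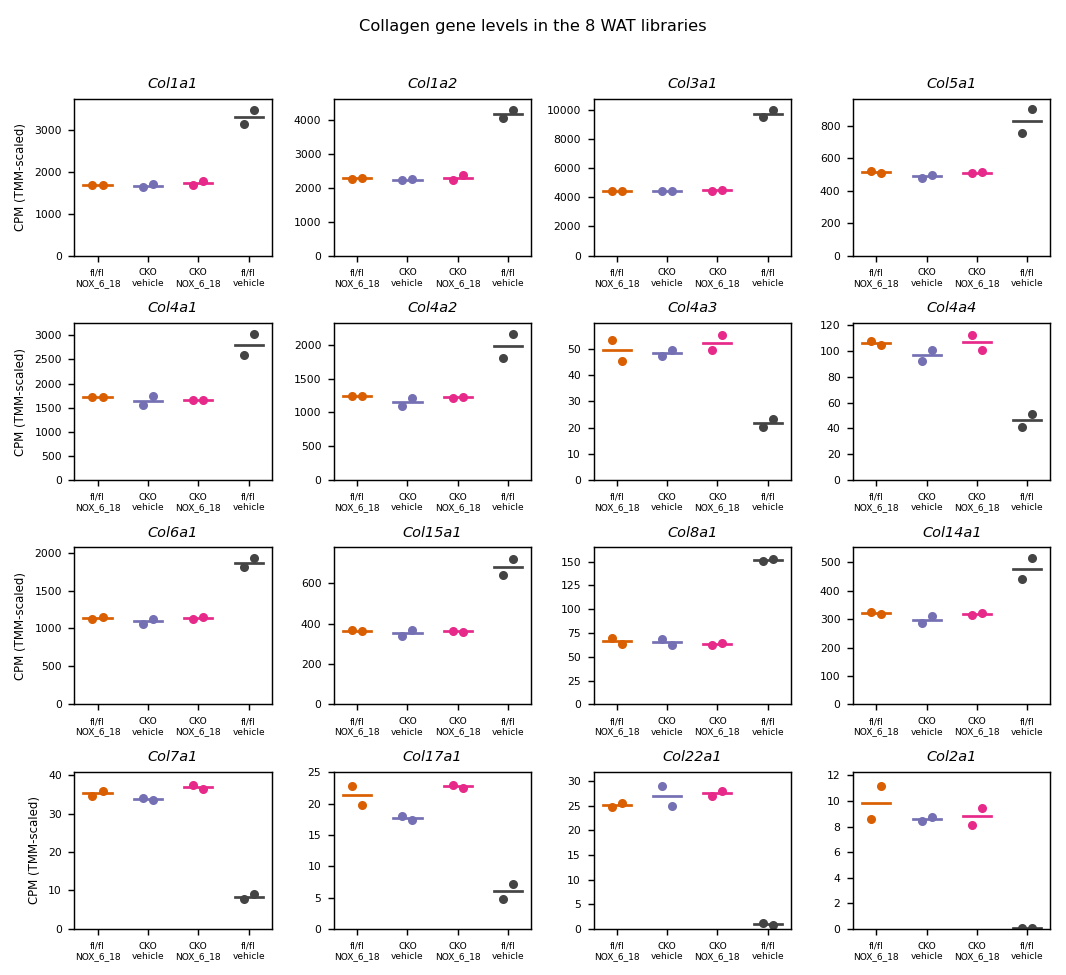
CPM in each WAT library for 16 collagens, with replicate 1 left and replicate 2 right in each group and a line at the group mean. In the panels of Col1a1, Col1a2, Col3a1, Col5a1, Col4a1, Col4a2, Col6a1, Col15a1, Col8a1 and Col14a1 the fl/fl vehicle libraries are the highest of the 8, and in the other 6 panels they are the lowest.

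The 6 type IV genes, which sit in head-to-head pairs on 3 chromosomes, did not move together. Col4a1 (chr8:11198423-11312826), a chain of the basement membrane network found in nearly all tissues, had 1731 and 1723 CPM in fl/fl NOX_6_18, 1553 and 1737 CPM in CKO vehicle and 1667 and 1663 CPM in CKO NOX_6_18, against 2591 and 3026 CPM in fl/fl vehicle libraries. Its partner in the same protein, Col4a2 (chr8:11312805-11449287), had 1235 and 1243 CPM in fl/fl NOX_6_18, 1087 and 1213 CPM in CKO vehicle and 1215 and 1228 CPM in CKO NOX_6_18, against 1806 and 2156 CPM in fl/fl vehicle. Both were highest in the fl/fl vehicle pair. Col4a1 fell by 0.70 ± 0.08 with NOX_6_18 (adjusted p = 0.000196) and by 0.77 ± 0.08 with CKO (adjusted p = 0.000112) on the log2 scale, and Col4a2 by 0.68 ± 0.08 (adjusted p = 0.00039) and 0.78 ± 0.08 (adjusted p = 0.000168). The counts of Col4a1 stood to those of Col4a2 at 1.35 to 1.43 in the 6 other libraries and at 1.40 to 1.43 in fl/fl vehicle, so the balance of the pair, whose exons overlap each other at the start, was alike.

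Col4a3 and Col4a4 encode chains of the specialised basement membrane of the kidney filter and some epithelia, and their starts on chromosome 1 lie 72 bases apart. Col4a3 had 53.5 and 45.4 CPM in fl/fl NOX_6_18, 47.2 and 49.5 CPM in CKO vehicle and 49.6 and 55.4 CPM in CKO NOX_6_18, against 20.4 and 23.2 CPM in fl/fl vehicle libraries. Col4a4 had 108 and 105 CPM in fl/fl NOX_6_18, 92.5 and 101 CPM in CKO vehicle and 112 and 101 CPM in CKO NOX_6_18, against 41.0 and 51.5 CPM in fl/fl vehicle. Both were lowest in the fl/fl vehicle pair, the opposite of Col4a1 and Col4a2. The log2 fold changes with NOX_6_18 were 1.18 ± 0.11 for Col4a3 (adjusted p = 8.96e-05) and 1.20 ± 0.12 for Col4a4 (adjusted p = 9.09e-05), and those with CKO were 1.15 ± 0.11 and 1.06 ± 0.12, both called. Counts of Col4a3 per count of Col4a1 were 0.0263 to 0.0333 in the 6 other libraries and 0.00765 to 0.00786 in fl/fl vehicle, while Col4a3 per Col4a4 was 0.434 to 0.548 and 0.450 to 0.497.

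Col4a5 and Col4a6 form the pair on the X chromosome, with starts 1309 bases apart, and encode chains that join the Col4a3 and Col4a4 chains or each other in basement membranes. Col4a6 had 60.7 and 65.0 CPM in fl/fl NOX_6_18, 58.3 and 62.6 CPM in CKO vehicle and 63.4 and 63.3 CPM in CKO NOX_6_18, against 37.5 and 43.7 CPM in fl/fl vehicle libraries. It did not overlap between groups and rose by 0.63 ± 0.09 (adjusted p = 0.00113) and 0.57 ± 0.09 (adjusted p = 0.00189) on the log2 scale. Col4a5 had 117 to 128 CPM in the 6 other libraries and 104 and 127 CPM in fl/fl vehicle, which overlapped (log2 fold change 0.13 ± 0.10, adjusted p = 0.351, with NOX_6_18). Counts of Col4a5 per count of Col4a6 were 1.89 to 2.10 in the 6 other libraries and 2.77 to 2.91 in fl/fl vehicle.

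Of the 6 beaded filament genes, the type VI chains that link cells to the matrix around adipocytes, 3 fell and 1 rose with NOX_6_18, and 4 fell and 1 rose with CKO. The shares of all genes called were 13.2% lower and 24.6% higher with NOX_6_18, and 12.4% and 24.4% with CKO. Col6a1 had 1130.0 and 1149 CPM in fl/fl NOX_6_18, 1063 and 1127 CPM in CKO vehicle and 1125 and 1151 CPM in CKO NOX_6_18, against 1808 and 1926 CPM in fl/fl vehicle libraries. Col6a2 had 1025 and 1036 CPM in fl/fl NOX_6_18, 996 and 1067 CPM in CKO vehicle and 1038 and 1093 CPM in CKO NOX_6_18, against 1672 and 1778 CPM in fl/fl vehicle. Col6a3, whose cleaved end is the adipokine endotrophin, had 793 and 789 CPM in fl/fl NOX_6_18, 643 and 748 CPM in CKO vehicle and 795 and 802 CPM in CKO NOX_6_18, against 1178 and 1534 CPM in fl/fl vehicle libraries. All 3 were highest in fl/fl vehicle, with log2 fold changes for NOX_6_18 of −0.71 ± 0.05 (adjusted p = 1.32e-05), −0.74 ± 0.05 (adjusted p = 1.7e-05) and −0.78 ± 0.12 (adjusted p = 0.00116). For CKO they were −0.77 ± 0.05, −0.74 ± 0.05 and −0.96 ± 0.12, all called.

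The remaining type VI genes, alternative chains that can take the place of the α3 chain, differed from these. Col6a4 had 7.19 and 6.91 CPM in fl/fl NOX_6_18, 6.20 and 7.93 CPM in CKO vehicle and 6.68 and 6.86 CPM in CKO NOX_6_18, against 2.85 and 2.10 CPM in fl/fl vehicle libraries. It was lowest in fl/fl vehicle, with log2 fold changes of 1.51 ± 0.21 for NOX_6_18 (adjusted p = 0.000732) and 1.51 ± 0.21 for CKO (adjusted p = 0.000739). Col6a5 had 582 and 552 CPM in fl/fl NOX_6_18, 474 and 536 CPM in CKO vehicle and 595 and 589 CPM in CKO NOX_6_18, against 609.9 and 814 CPM in fl/fl vehicle libraries. It passed the test only for CKO (log2 fold change −0.50 ± 0.12, adjusted p = 0.014, against −0.33 ± 0.12 and adjusted p = 0.0673 for NOX_6_18), and that call was lost without CKO vehicle replicate 1 and when library totals replaced TMM. Col6a6 overlapped between groups at 84.8 to 107 CPM in the 6 other libraries and 105 and 119.5 CPM in fl/fl vehicle and was not called.

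The fibril-associated collagens (FACIT), which sit on the surface of fibrils or at tissue borders, had a median log2 fold change of 1.33 with NOX_6_18 and 1.42 with CKO. In both comparisons 6 of the 9 rose and 1 fell. The shares of all genes called were 24.6% higher and 13.2% lower with NOX_6_18, and 24.4% and 12.4% with CKO. Col22a1 (chr15:71795795-72034227, minus strand), a collagen of tissue junctions such as that of muscle and tendon, had 24.9 and 25.6 CPM in fl/fl NOX_6_18, 29.0 and 25.0 CPM in CKO vehicle and 26.97 and 28.1 CPM in CKO NOX_6_18, against 1.18 and 0.689 CPM in fl/fl vehicle libraries. The fl/fl vehicle pair was far below the others, and the log2 fold changes were 4.77 ± 0.21 (adjusted p = 1.03e-06) and 4.87 ± 0.22 (adjusted p = 9.17e-07). Col20a1, a little-studied member of the class, had 11.3 and 10.4 CPM in fl/fl NOX_6_18, 11.03 and 11.1 CPM in CKO vehicle and 10.8 and 11.2 CPM in CKO NOX_6_18, against 3.85 and 4.39 CPM in fl/fl vehicle, and rose by 1.40 ± 0.14 (adjusted p = 0.00011) and 1.42 ± 0.14 (adjusted p = 9.91e-05). Col9a1, which encodes a chain of the type IX collagen of cartilage, had 1.55 and 1.798 CPM in fl/fl NOX_6_18, 1.18 and 1.26 CPM in CKO vehicle, 0.959 and 0.719 CPM in CKO NOX_6_18 and 0 counts in both fl/fl vehicle libraries. With 3 counts over the group as the floor, this was at least 53.2-fold higher with NOX_6_18 and at least 38.5-fold higher with CKO.

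Col12a1, which binds type I fibrils in tendon and other dense tissue, had 104 and 97.7 CPM in fl/fl NOX_6_18, 84.3 and 94.0 CPM in CKO vehicle and 101 and 105 CPM in CKO NOX_6_18, against 46.7 and 56.3 CPM in fl/fl vehicle libraries. It rose by 0.97 ± 0.10 (adjusted p = 0.000168) and 0.79 ± 0.10 (adjusted p = 0.000541) on the log2 scale. Col14a1, which also binds type I fibrils and is a marker of stromal fibroblasts, went the other way, with 324 and 318 CPM in fl/fl NOX_6_18, 287 and 311 CPM in CKO vehicle and 314 and 321 CPM in CKO NOX_6_18, against 441 and 515 CPM in fl/fl vehicle. Its log2 fold changes were −0.58 ± 0.08 (adjusted p = 0.000734) and −0.68 ± 0.08 (adjusted p = 0.000291). Col16a1, found beside fibrillin fibres and small fibrils, had 120.1 and 137 CPM in fl/fl NOX_6_18, 121 and 127 CPM in CKO vehicle and 128 and 127 CPM in CKO NOX_6_18, against 95.3 and 106 CPM in fl/fl vehicle libraries. Its changes of 0.35 ± 0.09 (adjusted p = 0.0126) and 0.31 ± 0.09 (adjusted p = 0.0242) were lost without fl/fl vehicle replicate 1, and also without fl/fl NOX_6_18 replicate 2 or either CKO vehicle library in the comparison each belongs to. Col19a1, a low-abundance collagen of muscle and brain, was at 0.756 to 1.53 CPM in the 6 other libraries and 0.294 and 0.157 CPM in fl/fl vehicle, and was called with log2 fold changes of 2.70 ± 0.48 (adjusted p = 0.00292) and 1.81 ± 0.48 (adjusted p = 0.0201). The CKO call of Col19a1 was lost without fl/fl vehicle replicate 2 and without either CKO vehicle library. Col9a2 and Col9a3, the partner chains of Col9a1, were not called, at 0 to 0.639 CPM and 0.826 to 2.19 CPM over the 8 libraries.

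The 2 multiplexins, collagens of the border between basement membrane and stroma, were both called lower. With NOX_6_18 13.2% of all genes were called lower, and with CKO 12.4%. Col15a1 had 368 and 362 CPM in fl/fl NOX_6_18, 338 and 366 CPM in CKO vehicle and 365 and 357 CPM in CKO NOX_6_18, against 639 and 721 CPM in fl/fl vehicle libraries. It was highest in the fl/fl vehicle pair, with log2 fold changes of −0.90 ± 0.07 (adjusted p = 2.67e-05) and −0.95 ± 0.07 (adjusted p = 1.89e-05). Col18a1, whose fragment endostatin inhibits vessel growth, had 291 and 280.1 CPM in fl/fl NOX_6_18, 270.3 and 303 CPM in CKO vehicle and 283 and 291 CPM in CKO NOX_6_18, against 318 and 360.0 CPM in fl/fl vehicle, with −0.25 ± 0.08 (adjusted p = 0.0401) and −0.24 ± 0.08 (adjusted p = 0.0456). The direction of Col18a1 flipped to 0.21 and 0.24 when the GC content and length trends were removed, and the calls were lost with library totals and without fl/fl vehicle replicate 2, either fl/fl NOX_6_18 library, either CKO NOX_6_18 library or, for CKO, CKO vehicle replicate 1.

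The short-chain pair of type VIII, which forms a network under endothelium and in vessel walls, split. Col8a1 had 70.0 and 64.0 CPM in fl/fl NOX_6_18, 69.1 and 62.8 CPM in CKO vehicle and 61.9 and 64.8 CPM in CKO NOX_6_18, against 151 and 153 CPM in fl/fl vehicle libraries. Col8a2 had 22.5 and 23.1 CPM in fl/fl NOX_6_18, 23.2 and 20.9 CPM in CKO vehicle and 22.0 and 23.9 CPM in CKO NOX_6_18, against 12.5 and 13.3 CPM in fl/fl vehicle. Col8a1 was thus highest and Col8a2 lowest in the fl/fl vehicle pair, with log2 fold changes for NOX_6_18 of −1.18 ± 0.08 (adjusted p = 1.2e-05) and 0.82 ± 0.11 (adjusted p = 0.000511). For CKO they were −1.20 ± 0.08 (adjusted p = 1.06e-05) and 0.77 ± 0.11 (adjusted p = 0.000736), and counts of Col8a1 per count of Col8a2 were 2.71 to 3.11 in the 6 other libraries and 11.5 to 12.1 in fl/fl vehicle.

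Collagens of skin-type epithelium and of the cell membrane rose. Col7a1, which forms the anchoring fibrils under stratified epithelium, had 34.7 and 36.0 CPM in fl/fl NOX_6_18, 34.1 and 33.5 CPM in CKO vehicle and 37.4 and 36.4 CPM in CKO NOX_6_18, against 7.66 and 8.97 CPM in fl/fl vehicle libraries. Col17a1, the transmembrane collagen of hemidesmosomes in basal epithelial cells, had 22.8 and 19.9 CPM in fl/fl NOX_6_18, 17.9997 and 17.3 CPM in CKO vehicle and 23.0 and 22.6 CPM in CKO NOX_6_18, against 4.802 and 7.18 CPM in fl/fl vehicle. Both were far below the other libraries in the fl/fl vehicle pair. The log2 fold changes of Col7a1 were 2.09 ± 0.10 (adjusted p = 1.85e-06) and 2.02 ± 0.10 (adjusted p = 2.19e-06), and those of Col17a1 were 1.83 ± 0.18 (adjusted p = 0.000112) and 1.56 ± 0.18 (adjusted p = 0.000283).

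Of the 4 transmembrane genes 3 rose in both comparisons, where 24.6% of all genes were called higher with NOX_6_18 and 24.4% with CKO. Beside Col17a1, Col23a1, a membrane collagen of epithelium, had 35.5 and 31.6 CPM in fl/fl NOX_6_18, 30.3 and 33.1 CPM in CKO vehicle and 29.5 and 33.4 CPM in CKO NOX_6_18, against 14.7 and 15.9 CPM in fl/fl vehicle libraries. Its log2 fold changes were 1.13 ± 0.11 (adjusted p = 0.000115) and 1.05 ± 0.11 (adjusted p = 0.000179). Col13a1, a membrane collagen of adhesion sites and of the nerve-muscle junction, had 7.25 and 10.1 CPM in fl/fl NOX_6_18, 10.9 and 9.41 CPM in CKO vehicle and 8.44 and 9.94 CPM in CKO NOX_6_18, against 3.83 and 2.99 CPM in fl/fl vehicle, with 1.35 ± 0.22 (adjusted p = 0.00173) and 1.58 ± 0.22 (adjusted p = 0.000754). Col25a1, a neuronal membrane collagen, was at 0.272 to 2.44 CPM and was not called. Col28a1, which is found around Schwann cells, had 17.03 and 15.1 CPM in fl/fl NOX_6_18, 15.8 and 16.3 CPM in CKO vehicle and 16.5 and 15.4 CPM in CKO NOX_6_18, against 27.5 and 29.2 CPM in fl/fl vehicle libraries, and fell by 0.82 ± 0.11 in both comparisons (adjusted p = 0.000546 and 0.00056). Col26a1, a low-abundance collagen named from testis and ovary, was at 0.445 to 0.816 CPM in the 6 other libraries and 0.113 and 0.0787 CPM in fl/fl vehicle, with 2.80 ± 0.61 (adjusted p = 0.00798, lost without fl/fl NOX_6_18 replicate 2) and 2.66 ± 0.61 (adjusted p = 0.0102). Col10a1, the collagen of cartilage cells that enlarge before bone forms, reached at most 8 counts and was not tested.

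Once either NOX_6_18 or the CKO label was present, the other made no difference that passed the test. In WAT of CKO mice, NOX_6_18 against vehicle gave 0 collagen calls by edgeR, where 0.0155% of all genes were called, and 1 collagen had an unadjusted p under 0.05. On NOX_6_18, CKO against fl/fl also gave 0 calls, where 0.0348% of all genes were called, with 1 unadjusted p under 0.05. DESeq2 and limma-voom made 0 calls in both comparisons too. These counts do not show that the groups were equal. The NOX_6_18 effect in CKO minus that in fl/fl, tested as an interaction, was called for 33 collagens, where 25.3% of all genes were called.

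Genes outside the family that fold, cut, cross-link or bind collagen fell more often than they rose in WAT. Of all genes tested 13.2% were called lower and 24.6% higher with NOX_6_18, and 12.4% lower and 24.4% higher with CKO. Of 20 genes for folding and modifying collagen chains, 11 fell and 0 rose with NOX_6_18, and 12 fell and 0 rose with CKO, with medians of −0.41 and −0.37. Sparc, a collagen-binding matrix protein, averaged 2355 CPM in fl/fl NOX_6_18 and 4196 CPM in fl/fl vehicle libraries (log2 fold change −0.83 ± 0.05), and Fkbp10, a collagen chaperone, averaged 57.9 and 97.7 CPM (−0.75 ± 0.07). Of 13 genes for propeptide removal and cross-linking, 8 fell and 1 rose with NOX_6_18 and 8 fell and 0 rose with CKO, among them Adamts2 (−0.81 ± 0.07) and Bmp1 (−0.67 ± 0.06), which cut the ends of procollagen, and Lox (−0.60 ± 0.06), which cross-links it. Of 13 collagen receptors, 8 fell and 1 rose with NOX_6_18 and 8 fell and 0 rose with CKO, among them Mrc2 (−0.91 ± 0.07), which takes up collagen for breakdown, and Lair1 (−0.94 ± 0.09), an inhibitory receptor of leukocytes. With library totals in place of TMM, 2 receptors rose and 4 fell with NOX_6_18.

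Basement membrane partners of type IV collagen were called in both directions. Of 16 laminins, nidogens and other basement membrane genes, 6 rose and 6 fell with NOX_6_18 and 5 rose and 7 fell with CKO, with medians of −0.06 and −0.23 that turned to 0.23 and 0.12 when GC content and length trends were removed. The epithelial laminin chain Lamb3 rose with NOX_6_18 (1.65 ± 0.14), and so did Lama1 (2.02 ± 0.24), a laminin chain of embryonic and some adult epithelial basement membranes. Nid1, which links laminin to type IV collagen, fell by 0.54 ± 0.07. Of 16 genes of TGF-beta signalling, which drives collagen transcription in fibroblasts, 7 fell and 1 rose with NOX_6_18 (of all genes 13.2% and 24.6%) and 8 fell and 2 rose with CKO, but with library totals 3 rose and 3 fell with NOX_6_18. Tgfbr2, a TGF-beta receptor, fell by 0.56 ± 0.07, and the ligand Tgfb1 by 0.58 ± 0.07. In the comparisons of NOX_6_18 with vehicle in CKO and of CKO with fl/fl on NOX_6_18, 0 genes of these 5 lists were called.

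Markers of several cell types moved with the collagens, and their part in these results was not tested. Of all genes tested, 24.6% were called higher and 13.2% lower with NOX_6_18, and 24.4% higher and 12.4% lower with CKO. The summed level of 10 fibroblast markers was 3889 to 4259 CPM in the 6 other WAT libraries and 5605 to 6199 CPM in fl/fl vehicle, and 8 of the 10 fell with NOX_6_18 and 7 with CKO. Endothelial markers summed to 1413 to 1477 CPM and 2039 to 2055 CPM, with 8 of 8 lower and 7 of 8 lower, and the 9 macrophage markers summed to 5183 to 5378 CPM and 7413 to 8121 CPM, with 6 lower and 1 higher with NOX_6_18 and 7 lower with CKO. Adipocyte markers summed to 1358 to 1528 CPM in the 6 libraries and 2096 to 2317 CPM in fl/fl vehicle, with 2 of 6 rising and 2 falling with NOX_6_18. In the labelled macrophage RNA, Lyz2 averaged 2032 CPM in fl/fl NOX_6_18 and 3537 CPM in fl/fl vehicle libraries. All 4 basal epithelial markers, which include Krt5 and Trp63, rose in both comparisons and summed to 167 to 181 CPM in the 6 libraries and 46.2 to 50.6 CPM in fl/fl vehicle. All 4 epididymal markers rose, with sums of 838 to 919 CPM and 310 to 349 CPM, and all 5 testis markers rose, with sums of 563 to 645 CPM and 12.6 to 15.8 CPM and Boll, a germ cell gene, at 0 in fl/fl vehicle. Of 3 chondrocyte markers tested 2 rose with NOX_6_18, of 4 Schwann cell markers 0 were called, of 8 pericyte and smooth muscle markers 3 rose and 3 fell, and of 5 hepatocyte markers 4 rose, with sums of 33.2 to 37.7 CPM and 6.00 to 6.64 CPM. Of 5 mesothelial markers 2 rose, of 3 cholangiocyte markers 2 rose and 1 fell, of 5 liver sinusoidal endothelial markers 2 rose and of 7 hepatic stellate markers 3 rose with NOX_6_18.

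In liver the family took 0.131% to 0.147% of the counts in the 6 libraries of the other 3 groups and 0.141% and 0.143% in fl/fl vehicle, which overlapped, and few members changed. Of 36 collagens tested, 5 were called with NOX_6_18 in fl/fl mice, 4 higher and 1 lower, where 5.52% of all genes were called. With CKO on vehicle 6 were called, 4 higher and 2 lower, where 5.80% of all genes were called. The share of lower calls in these small sets depended on the setting: with NOX_6_18 it was 4 higher and 2 lower with library totals and 7 higher and 0 lower with GC content and length trends removed, and with CKO it was 5 higher and 0 lower with those trends removed and 7 higher and 2 lower by DESeq2. Leaving out fl/fl vehicle replicate 1 left 1 call in each comparison, and every reported call other than those of Col13a1 was lost without fl/fl vehicle replicate 1 and without fl/fl vehicle replicate 2. Every such call in the NOX_6_18 comparison was also lost without fl/fl NOX_6_18 replicate 1, and every such call in the CKO comparison without CKO vehicle replicate 2. The median log2 fold change of the family was 0.28 with NOX_6_18 and 0.18 with CKO, with all genes at −0.005 and −0.007.

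**Figure D3:**
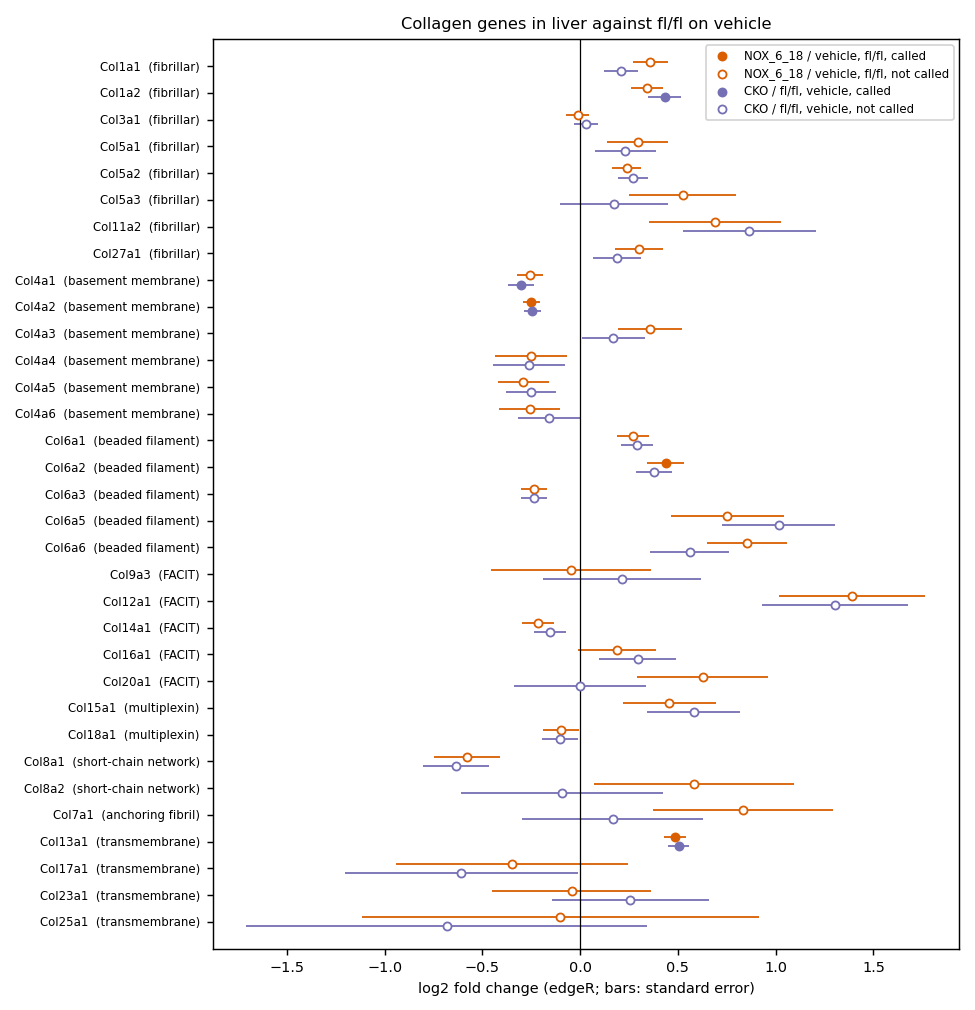
Log2 fold changes in liver for the tested collagens, for fl/fl NOX_6_18 and for CKO vehicle, each over the same fl/fl vehicle libraries. Filled points were called (adjusted p under 0.05), open points were not, and bars are the SE; Col11a1, Col28a1 and Col19a1 lie beyond the axis. Col13a1 lies above 0 in both comparisons, at 0.48 and 0.50, while Col4a2 lies just below 0.

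Col13a1 was the liver collagen whose calls against fl/fl vehicle, with NOX_6_18 and with CKO, held in every alternative and with each library left out in turn. It had 131 and 131 CPM in fl/fl NOX_6_18, 134 and 131 CPM in CKO vehicle and 132 and 131 CPM in CKO NOX_6_18, against 89.8 and 97.2 CPM in fl/fl vehicle libraries. Both fl/fl vehicle libraries lay below the other 6, which were nearly equal. The log2 fold changes were 0.48 ± 0.06 for NOX_6_18 (adjusted p = 0.00143) and 0.50 ± 0.06 for CKO (adjusted p = 0.00121). Markers of liver sinusoidal endothelium moved with it, 4 of 5 higher in each comparison, where 5.52% and 5.80% of all genes were called either way. Their sums were 4995 to 5077 CPM in the 6 other libraries and 4017 to 4072 CPM in fl/fl vehicle, and their part in the result was not tested.

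The type IV pair, the most abundant collagens of the liver, was slightly lower. Col4a2 had 321 and 322 CPM in fl/fl NOX_6_18, 332 and 313 CPM in CKO vehicle and 333 and 327 CPM in CKO NOX_6_18, against 382 and 383 CPM in fl/fl vehicle libraries. The groups did not overlap, and the log2 fold changes were −0.25 ± 0.04 (adjusted p = 0.0118) and −0.24 ± 0.04 (adjusted p = 0.0127). Col4a1 had 360.1 and 407 CPM in fl/fl NOX_6_18, 355 and 388 CPM in CKO vehicle and 441 and 428 CPM in CKO NOX_6_18, against 447 and 469 CPM in fl/fl vehicle, and passed the test only with CKO (−0.30 ± 0.07, adjusted p = 0.0364, beside −0.26 ± 0.07 and adjusted p = 0.0688 with NOX_6_18). All these type IV calls were lost when GC content and length trends were removed. Cholangiocyte markers, also lower, summed to 318 to 344 CPM in the 6 other libraries and 494 to 504 CPM in fl/fl vehicle. Of these 3, 1 was called lower with NOX_6_18 and 3 with CKO, where 5.52% and 5.80% of all genes were called either way. The 8 endothelial markers went the other way, with sums of 3716 to 3803 CPM and 3549 to 3612 CPM. The part of either list in the type IV result was not tested.

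**Figure D4:**
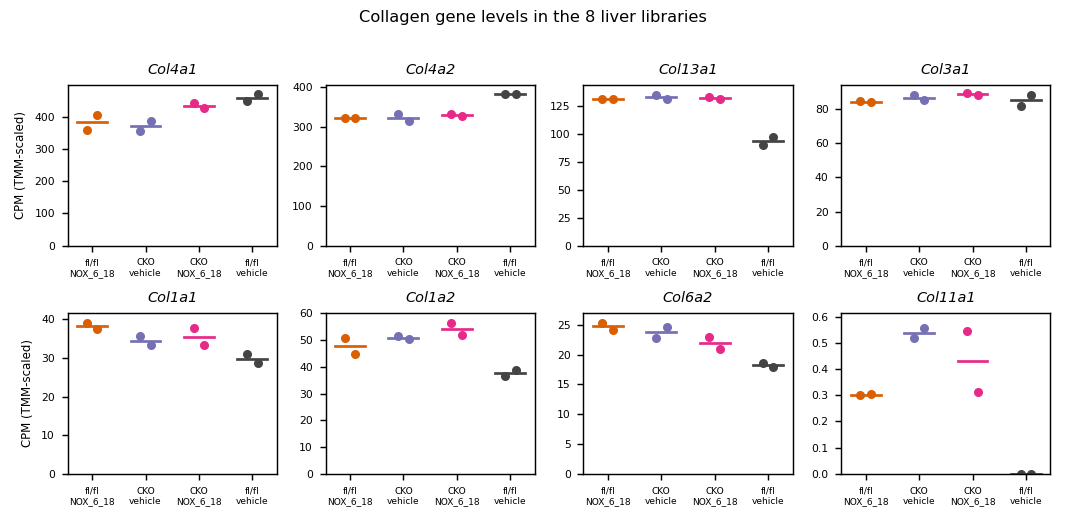
CPM in each liver library for 8 collagens, with replicate 1 left and replicate 2 right in each group and a line at the group mean. The fl/fl vehicle libraries are the lowest for Col13a1, at 89.8 and 97.2, and the highest for Col4a1 and Col4a2, while for Col3a1, at 81.5 and 88.5, one is the lowest of the 8 and the other lies among the remaining 6.

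Of the abundant fibrillar and type VI genes that fell in WAT, Col3a1 overlapped between groups in liver, while Col1a2 and Col6a2 were each called higher in 1 of the 2 comparisons. Col3a1 had 84.5 and 84.1 CPM in fl/fl NOX_6_18, 88.1 and 85.4 CPM in CKO vehicle and 89.2 and 88.0 CPM in CKO NOX_6_18, against 81.5 and 88.5 CPM in fl/fl vehicle libraries. The groups overlapped, and the log2 fold changes were −0.01 ± 0.06 (adjusted p = 0.958) and 0.03 ± 0.06 (adjusted p = 0.868). Col1a2 had 50.9 and 44.7 CPM in fl/fl NOX_6_18, 51.5 and 50.3 CPM in CKO vehicle and 56.2 and 51.8 CPM in CKO NOX_6_18, against 36.6 and 38.8 CPM in fl/fl vehicle, and was called higher with CKO (0.43 ± 0.08, adjusted p = 0.0209) but not with NOX_6_18 (0.34, adjusted p = 0.0553). Col6a2 had 25.3 and 24.1 CPM in fl/fl NOX_6_18, 22.8 and 24.6 CPM in CKO vehicle and 22.9 and 20.9 CPM in CKO NOX_6_18, against 18.7 and 17.8 CPM in fl/fl vehicle, and was called with NOX_6_18 (0.44 ± 0.09, adjusted p = 0.0311) but not with CKO (0.38, adjusted p = 0.054). Both genes lay above the fl/fl vehicle pair in all 6 other libraries.

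The remaining abundant members were not called in liver, and values by library are given here for Col1a1 and Col6a3. Of the FACIT genes, which include Col14a1, and of the multiplexins, 0 were called in either comparison. The FACIT genes summed to 66.5 to 73.0 CPM in the 6 other libraries and to 71.5 and 74.8 CPM in fl/fl vehicle, which overlapped. Col1a1 had 39.1 and 37.4 CPM in fl/fl NOX_6_18, 35.6 and 33.3 CPM in CKO vehicle and 37.6 and 33.3 CPM in CKO NOX_6_18, against 31.0 and 28.6 CPM in fl/fl vehicle libraries (adjusted p = 0.0557 with NOX_6_18 and 0.254 with CKO). Col6a3 had 54.3 and 56.0 CPM in fl/fl NOX_6_18, 57.6 and 52.8 CPM in CKO vehicle and 52.5 and 53.6 CPM in CKO NOX_6_18, against 65.1 and 64.8 CPM in fl/fl vehicle (adjusted p = 0.081 and 0.0837). The groups did not overlap for either gene, yet neither passed the test. Of the 10 fibroblast markers 3 rose in each comparison, where 5.52% and 5.80% of all genes were called either way. Their sum was 160 to 178 CPM in the 6 other libraries and 141 to 142 CPM in fl/fl vehicle. The 7 hepatic stellate markers summed to 46.2 to 52.7 CPM and 47.0 to 53.2 CPM, which overlapped, with 1 rising and 1 falling with NOX_6_18 and 1 falling with CKO.

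Calls at the floor completed the liver set. Col11a1 had 0.300 to 0.556 CPM in the 6 other libraries and 0 counts in both fl/fl vehicle libraries, at least 10.5-fold higher with NOX_6_18 and at least 18.5-fold higher with CKO. Col28a1 had 0.209 to 1.26 CPM and 0 counts in fl/fl vehicle, at least 28.1-fold and at least 11.6-fold higher. Both calls rest on 32 to 86 counts per pair of libraries, and by limma-voom neither gene was called. The 8 collagens not tested in liver, Col2a1, Col6a4, Col9a1, Col9a2, Col10a1, Col22a1, Col24a1 and Col26a1, reached at most 27 counts in a library. Over both fl/fl NOX_6_18 liver libraries Col2a1 had 4 counts, Col22a1 4 and Col9a1 0. In CKO vehicle they had 0, 12 and 0. The liver libraries were about as deep as those of WAT, so a rise to the WAT levels of these 3 genes was not seen in liver, while smaller changes could not be resolved.

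In liver, NOX_6_18 against vehicle in CKO and CKO against fl/fl on NOX_6_18 gave 0 collagen calls each by edgeR, where 0.0359% of all genes were called in each, with 2 and 1 unadjusted p under 0.05. DESeq2 and limma-voom gave 0 and 0 calls. The interaction of treatment and genotype was called for 2 collagens in liver, where 2.45% of all genes were called. Against fl/fl vehicle, 5.52% of all liver genes were called with NOX_6_18 and 5.80% with CKO. Of the 20 collagen-processing genes 2 rose in each of these comparisons, P4ha1 and Plod1, which hydroxylate proline and lysine, and P4ha1 had log2 fold changes of 0.78 ± 0.05 with NOX_6_18 (adjusted p = 8.41e-05) and 0.83 ± 0.05 with CKO (adjusted p = 6.56e-05). Of the cross-linking genes 0 were called, of the receptors Cd44 and Itga10 rose and Ddr1 fell in each, of the basement membrane partners Lamc3 and Agrn fell with NOX_6_18 and Agrn with CKO, and of the TGF-beta genes Smad7 and Tgfb2 fell in each. Macrophage markers summed to 1126 to 1149 CPM in the 6 other liver libraries and 1183 to 1221 CPM in fl/fl vehicle, and hepatocyte markers to 2477 to 2550 CPM and 2390 to 2482 CPM.

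The share of counts taken by the family differed more between tissues, at 1.74% to 3.08% in WAT and 0.131% to 0.147% in liver, than between groups of either. The number of collagens called was alike: 35 of 43 between tissues in fl/fl vehicle, beside 34 and 35 of 43 in WAT with NOX_6_18 and with CKO. The share of all genes called was alike too, at 38.2%, 37.8% and 36.8%, so this likeness is not particular to collagens. The first count is from the fit of all 16 libraries and the others from that of the 8 WAT libraries. For levels across tissues, TMM was computed over all 16 libraries and CPM was divided by merged exon length in kilobases, so that genes can be compared. In fl/fl vehicle libraries, Col3a1 led in WAT at 657 and 703 CPM per kilobase, against 11.97 and 12.9 in liver. Col1a1 had 325 and 367 CPM per kilobase in WAT and 6.80 and 6.26 in liver, and Col6a1 had 281 and 304 in WAT and 8.37 and 8.51 in liver. In liver the order began with Col4a1, at 86.3 and 90.2 CPM per kilobase against 236 and 281 in WAT, and Col4a2, at 83.2 and 83.0 against 186 and 226 in WAT. Col1a2 of WAT, at 221 and 239 CPM per kilobase, overlapped Col4a1 there, and in liver Col4a2 lay just below Col4a1. Next in liver came Col13a1 at 28.1 and 30.3 CPM per kilobase, beside 0.565 and 0.450 in WAT, and Col14a1 at 13.4 and 12.4, which overlapped Col3a1. The rank of the type I chains depended on the length used: Col1a1 per Col1a2 in WAT of fl/fl vehicle was 1.47 to 1.54 per kilobase of merged exons and 0.701 to 0.731 per kilobase of the longest transcript.

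**Figure D5:**
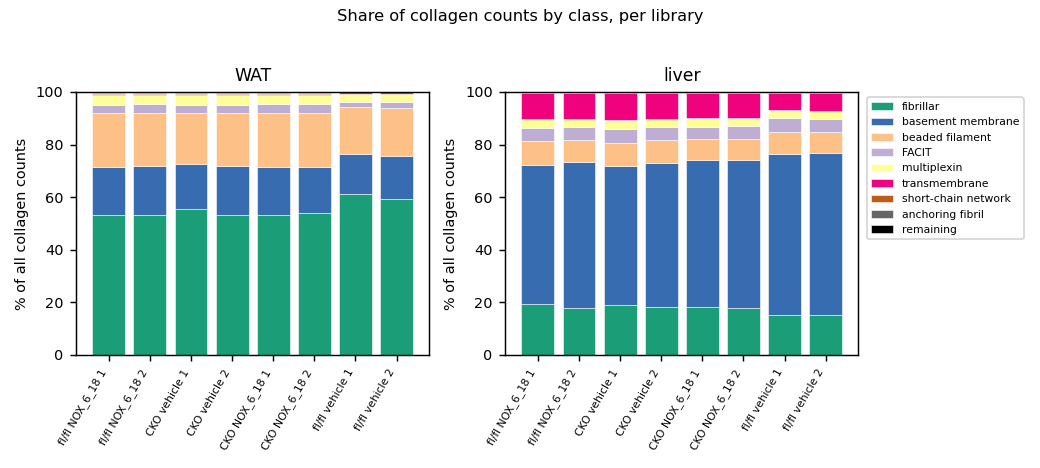
Share of each collagen class in all collagen counts of a library, as stacked bars in percent, with WAT libraries left and liver libraries right. Fibrillar genes make up 53.1% to 61.2% of the collagen counts in WAT and 15.2% to 19.2% in liver, and basement membrane genes 15.2% to 18.5% in WAT and 53.0% to 61.6% in liver.

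WAT was higher than liver for 36 of 43 collagens and lower for 2 in fl/fl NOX_6_18, where 51.4% of all genes were called. In CKO vehicle the counts were 37 higher and 3 lower (52.0% of all genes called), in CKO NOX_6_18 34 and 2 (51.3%), and in fl/fl vehicle 33 and 2 (38.2%, of all genes 21.6% higher and 16.5% lower). There were 32 collagens higher in WAT in all 4 comparisons, and Col13a1 and Col27a1 were lower in all 4. In fl/fl vehicle the median log2 difference of the family was 3.32, beside 0.005 for all genes, and the median of all genes moved to 0.949 with library totals in place of TMM. Mitochondrially encoded genes took 2.31% to 3.61% of the WAT counts and 43.0% to 44.9% of the liver counts, and their part in the shift was not tested.

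The abundant fibrillar genes, Col15a1 and Col6a5 had larger tissue differences than the type IV pair. In fl/fl NOX_6_18 and in fl/fl vehicle, the log2 difference of WAT over liver was 4.65 and 5.77 for Col3a1, 4.40 and 5.73 for Col1a1, 4.75 and 6.10 for Col15a1 and 6.01 and 7.07 for Col6a5. It was 1.11 and 1.55 for Col4a1 and 0.88 and 1.31 for Col4a2. All these were called. Col13a1 was lower in WAT by −4.98 and −5.85, and Col27a1 by −1.40 and −0.93, though the value of Col27a1 turned to 0.02 with library totals in fl/fl vehicle. Col28a1 had 2702 counts in the fl/fl vehicle libraries of WAT and 0 in those of liver, at least 469.7-fold higher. The effect of NOX_6_18 in fl/fl mice differed between WAT and liver for 24 collagens, where 14.7% of all genes were called, and the effect of CKO on vehicle for 26, where 14.2% were called. Fibrillar genes made up the largest class of collagen counts in every WAT library and basement membrane genes in every liver library. Within liver, the transmembrane class, mostly Col13a1, held 9.40% to 10.2% of the collagen counts in the 6 other libraries and 6.62% to 6.94% in fl/fl vehicle.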

How the data were processed

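Counts per gene were deposited by the authors for each of the 16 libraries and were used as deposited, unnormalized, without a row that names no gene. The submitters' processing notes name HISAT, featureCounts 1.5.0, DESeq 1.8.3 and the build GRCm38; the sources used here do not give the annotation release, the strand setting or any filter. Ensembl IDs were matched to GENCODE M21 (99.7% matched) and all 44 collagens were found. Exons of 13 collagens overlap another gene, among them Col3a1, Col5a1, Col4a1, Col4a2 and Col7a1, so their counts may be shared or lost. Members, gene lists and tests were chosen with earlier results of these data known. Each gene was tested with edgeR 4.0.16 (R 4.3.3): quasi-likelihood test, TMM, filterByExpr by group, 1 coefficient per group, the 8 libraries of a tissue in a fit (all 16 between tissues), Benjamini-Hochberg over all genes tested, adjusted p under 0.05. The procedure was tested on simulated data in which few genes changed, so that test does not cover the case of WAT, where many genes were called. Alternatives were other scalings, filters, fits and left-out libraries, DESeq2 1.42.0 and voom in limma 3.58.1. Gene list counts under other scalings were added after seeing the data. Members called within a tissue or reaching 5 CPM were to be given in every library, others by range, and from each list up to 4 called genes with the smallest adjusted p. This was not kept throughout: Col4a5, Col6a6, Col27a1, Col19a1 and Col26a1 in WAT are given by range, and some liver members, such as Col14a1, not in every library. Intervals from counts cover counting error only. Each SE was derived from the test, as the size of the log2 fold change divided by the square root of the F statistic. It is not a separately fitted standard error. For genes with few counts in a group, such as Col2a1 in fl/fl vehicle of WAT, it can understate the error.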

Additional observations from a re-analysis of the deposited data

Results flagged for a closer look

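The response of WAT collagens to NOX_6_18 differed between genotypes, as tested by the treatment by genotype interaction, which is the NOX_6_18 effect in CKO minus that in fl/fl. It was called for 33 of 43 collagens, 16 with a positive and 17 with a negative value, where 25.3% of all genes were called. The interaction was 1.16 for Col3a1 (adjusted p = 1.03e-06), 0.91 for Col1a2 (adjusted p = 2.31e-05), 1.03 for Col1a1 (adjusted p = 4.05e-05), −1.96 for Col7a1 (adjusted p = 2.59e-05), −4.74 for Col22a1 (adjusted p = 6.44e-06) and −6.80 for Col2a1 (adjusted p = 2.9e-06), on the log2 scale. These values use the same fl/fl vehicle libraries as the comparisons of NOX_6_18 and CKO with fl/fl vehicle and add no separate evidence.

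In liver the same interaction was called for 2 of 36 collagens, where 2.45% of all genes were called. It was −0.49 for Col13a1 (adjusted p = 0.0142) and 0.48 for Col4a1 (adjusted p = 0.0382), and each call was lost without any of 6 of the 8 libraries.

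The effect in WAT minus the effect in liver also differed from 0. For NOX_6_18 in fl/fl mice it was called for 24 collagens, where 14.7% of all genes were called, with −1.13 for Col3a1, −1.18 for Col6a2, −1.33 for Col1a1, −1.22 for Col1a2, −1.10 for Col5a2 and −0.98 for Col6a1. For CKO on vehicle it was called for 26 collagens, where 14.2% of all genes were called, with −1.16 for Col3a1, −1.32 for Col1a2, −1.20 for Col5a2, −1.11 for Col6a2, −1.05 for Col6a1 and −1.19 for Col1a1. In each of these genes the fall in WAT was larger than any change in liver. The tissue is also the library set, so the 2 cannot be told apart.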

How the results depend on the processing

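Of 142 counts of called collagens recomputed with another scaling, filter, fit or tool, 136 stayed within 1.5 times the reported count. The exceptions were in liver: with NOX_6_18 9 without the low-count filter, 9 by DESeq2 and 3 when the fit held the compared groups alone, and for the interaction 5 without the filter, 6 by DESeq2 and 1 with GC content and length trends removed; the cause was not tested. Of 2784 values for single collagens, 2698 kept direction and side of the threshold, 83 lost the call and 3 reversed: Col18a1 in WAT at 0.21 with NOX_6_18 and 0.24 with CKO when GC content and length trends were removed, and Col27a1 of WAT over liver in fl/fl vehicle at 0.019 with library totals. Leaving out each library in turn gave 31 to 36 calls in WAT with NOX_6_18, 31 to 35 with CKO and 28 to 33 for the interaction, and in liver 1 to 6, 1 to 5 and 0 to 2. Both comparisons without calls in each tissue stayed at 0. Between tissues the ranges were 38 to 38, 38 to 40, 36 to 38 and 33 to 36 for fl/fl NOX_6_18, CKO vehicle, CKO NOX_6_18 and fl/fl vehicle, and 17 to 25 and 20 to 26 for the differences of effects.

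Within a tissue, same-numbered libraries showed no shared deviation, with correlations between groups of −0.01 to 0.02 in WAT and −0.03 to 0.006 in liver. Same-numbered WAT and liver libraries were not set against each other. A pairing between tissues was thus not tested, and the tests between tissues treat all libraries as independent. With the number as a block the calls were 34 and 35 in WAT, 32 for the interaction, 4, 5 and 2 in liver, 38, 39, 36 and 35 between tissues and 23 and 25 for the differences of effects, and 0 in the comparisons without calls. With 2 libraries per group, members near the floor of 3 counts could not be resolved.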
